A study of Mus musculus with 10 samples.

Results

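Of the 6147 genes listed in the deposited table, 35 encode ion channels, cation pumps, ion cotransporters and exchangers or subunits that accompany them. They were chosen by gene symbol, as every gene that begins with Kcn, with Scn, Hcn or Itpr and a digit, with Atp1 or Atp2 and then a or b, or with Cacn, Clcn, Slc12, Slc8, Vdac or Ryr, and the rule uses no measured value. The table lists 4 genes named Kcn, 1 Scn, 7 Cacn, 3 Clcn, 6 Atp1, 4 Atp2, 4 Slc12, 2 Slc8, 3 Vdac and 1 Itpr gene, and 0 genes named Hcn or Ryr, so channels outside these names are not analysed here. All 35 had a mean of at least 1 TPM over the 10 libraries and were tested among 6048 genes. The member with the lowest mean was Atp2b3, at 2.17 TPM. TPM are read counts divided by gene length and expressed as a share of a fixed library total, so levels can be compared between genes. Between libraries, a share also depends on the levels of the other genes, and changes are therefore also given under other scalings.

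RNA was measured in frozen neocortex of CD1 wild-type mice, an outbred strain, at embryonic days E12.5, E14, E15.5 and E17 and on the day of birth, P0, with 2 libraries per stage described as biological duplicates. No allele, transgene or treatment is given for any stage, and the labels do not say whether a library came from 1 animal or from pooled tissue, nor the sex of the animals. P-values therefore measure the spread between the libraries of a stage. Read numbers per library were not given in the sources used here, and the listed genes held between 68.9% and 71.7% of all TPM in a library.

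The sodium pump, the Na,K-ATPase, joins a catalytic subunit to a beta subunit that carries it to the cell surface, and it keeps the sodium and potassium gradients on which channels and cotransporters run. In the developing cortex, dividing progenitors give rise to neurons that gain excitability, and the balance between a chloride importer, Slc12a2, and a chloride exporter, Slc12a5, sets the response of a neuron to GABA. Calcium enters through voltage-gated channels, is released from the endoplasmic reticulum through receptors such as Itpr1 and is removed by pumps and by sodium-calcium exchangers.

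Markers of neurons summed to 2695 and 2730 TPM in the E12.5 libraries and to 8958 and 9650 TPM at P0, and the 7 markers in the table (of 9 on the list) were all higher at P0. Progenitor markers (5 of 8 in the table) fell from 1221 and 1298 TPM to 187 and 193 TPM. Astrocyte markers (5 of 7) summed to 343 and 370 TPM at E12.5 and to 285 and 290 TPM at P0, with 4 members higher and 1 lower at P0. Gfap had a mean of 0.155 at E12.5 and 26.6 TPM at P0, and Aldoc, the 1 lower, had 271 and 126 TPM. Tissue from outside the cortical wall was present in the early libraries. Choroid plexus markers (2 of 5) summed to 303 and 452 TPM at E12.5, to 1405 and 1517 TPM at E14 and to between 3.07 and 5.26 TPM from E15.5 on. Red cell markers (3 of 6) fell from 4323 and 4494 TPM at E12.5 to between 2.04 and 9.84 TPM from E15.5 on, and meningeal markers (4 of 4) from 123 and 125.3 TPM to between 1.96 and 5.72 TPM. The 3 skeletal muscle markers in the table (of 5) summed to at most 4.73 TPM in any library, and microglial markers (2 of 6) to at most 20.0 TPM. The 6 markers each of vessels and of the oligodendrocyte lineage are not in the table. In tissue of mixed cells, fewer cells of a type and less RNA per cell cannot be told apart.

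The 2 E17 libraries differed more from each other than those of any other stage. On the log2(TPM + 1) scale, 31 of the 35 genes were higher in E17 replicate 1 than in E17 replicate 2, with a median difference of 0.43 against 0.16 over all tested genes. The standard deviation of the difference between replicates over all genes was 0.28 at E17, against 0.088 to 0.176 elsewhere. Across 6048 genes of these libraries, the E17 difference had a Spearman correlation of 0.55 with coding length, against -0.35 to 0.02 at the other stages. The 35 genes had a median coding length of 2856 nucleotides against 1509 for all tested genes. These values do not show which of the 2 libraries departs from the stage. Counts that rest on E17 and several single changes are therefore also given without one of them.

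Between E12.5 and P0, 27 of the 35 genes passed the test (limma on log2(TPM + 1), adjusted p under 0.05), 21 higher and 6 lower at P0. Among all 6048 genes, 78.2% passed, 27.1% higher and 51.0% lower. The median change was 0.84 for the 35 genes and -0.27 for all genes, and 28 of the 35 lay above 0. The largest rises were those of the sodium pump subunit Atp1b1, the chloride exporter Slc12a5 and the potassium channel Kcnq5, and the largest fall was that of the cotransporter Slc12a7. The summed level of all 35 genes was 1744 ± 34.8 at E12.5 and 2559.5 ± 73.0 TPM at P0 (SD, n = 2, here and after every ± sign below). Under a median-of-ratios scaling the median of all genes moved from -0.27 to -0.01, and the count became 27 higher and 6 lower, against 37.9% and 37.7% of all genes.

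**Figure D1:**
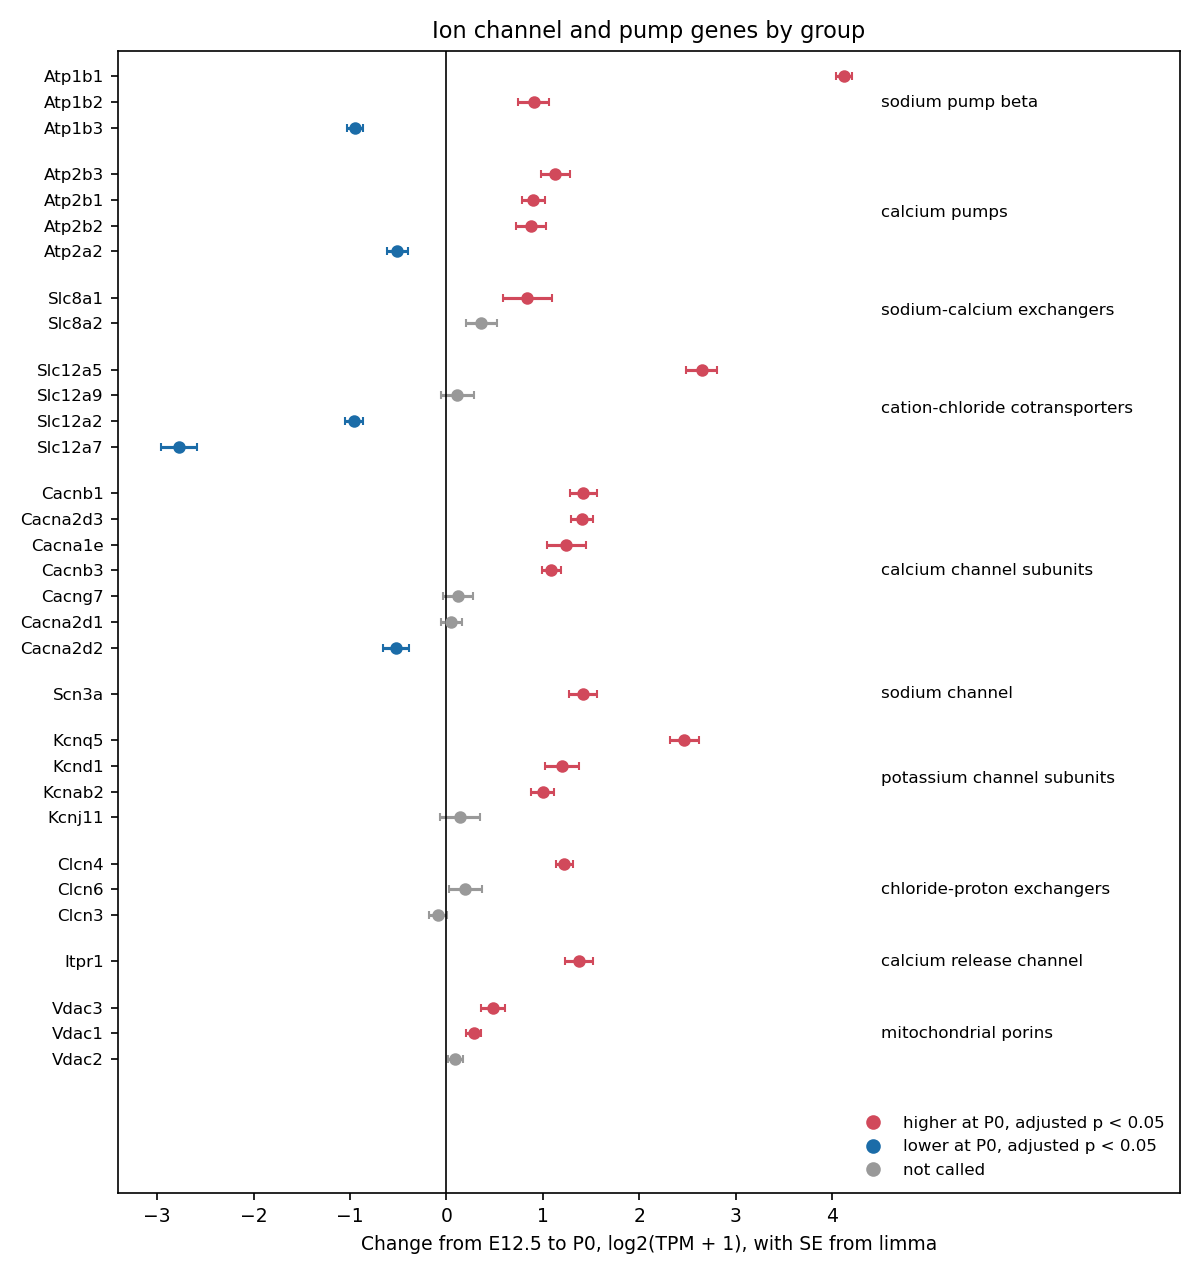
Each point is the change of 1 gene from E12.5 to P0 on the log2(TPM + 1) scale (horizontal axis), with the standard error from limma as a bar, ordered by group, for 32 of the 35 genes. The 19 red genes lie to the right, the 5 blue genes (Atp1b3, Atp2a2, Slc12a2, Slc12a7 and Cacna2d2) to the left, and the 8 grey genes did not pass the test.

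Among the beta subunits of the sodium pump, Atp1b1 and Atp1b3 exchanged places. Atp1b1, the beta subunit abundant in neurons, held 16.3 and 16.1 TPM at E12.5, 23 and 24.9 at E14, 53.7 and 57.6 at E15.5, 139.6 and 139 at E17 and 316 and 280.3 at P0. Each stage lay above the one before without overlap, and the mean at P0 was 18.4-fold that at E12.5. The change from E12.5 to P0 was 4.12 (SE 0.09, adjusted p = 1.9e-11), the largest rise among the 35 genes. From E12.5 to E14 its rise of 0.53 (SE 0.09, adjusted p = 0.00466) was the only 1 of the 35 that passed the test. Kcnj11 (0.73) and Cacna1e (0.59) rose more in that step without passing. The rises of Atp1b1 by 1.31 between E15.5 and E17 and by 1.09 between E17 and P0 were the largest among those that passed. The call of Atp1b1 from E12.5 to E14 was lost without either E12.5 library or without E14 replicate 2. Its 2 E17 libraries differed by 0.0016 on the log2 scale. Atp1b1 shares exon sequence with Nme7 on the opposite strand, which fell from a mean of 30.5 to 14.8 TPM. Whether the authors counted reads by strand was not given in the sources used here.

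Atp1b3, a beta subunit of many tissues, went the other way with 138 and 129.9 TPM at E12.5, 105 and 113 at E14, 70.2 and 65.3 at E15.5, 71 and 72.1 at E17 and 73 and 64.8 at P0. The 2 E12.5 libraries were the highest, the E14 libraries followed, and the P0 libraries spanned those of E15.5 and E17. Over the whole span it fell by 0.95 (SE 0.08, adjusted p = 8.44e-07), with means of 67.7 ± 3.5 TPM at E15.5 and 68.9 ± 5.85 TPM at P0. Atp1b2, a beta subunit known as a glial adhesion molecule, held 34.9 and 38.9 TPM at E12.5, 40.9 and 37.9 at E14, 35.6 and 37.4 at E15.5, 83.3 and 55.7 at E17 and 76.3 and 63.8 at P0. The E12.5 libraries overlapped with those of E14 and of E15.5, and the E17 and P0 libraries were higher than all of them. The rise from E12.5 to P0 was 0.90 (SE 0.16, adjusted p = 0.000253).

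As shares of the summed level of the 3 beta subunits in each library, Atp1b3 made up 71.6% ± 1.83 at E12.5 and 15.8% ± 0.105 at P0, while Atp1b1 made up 8.67% ± 0.016 and 68.2% ± 0.452. The crossing fell between E15.5, where Atp1b3 held 42.4% ± 2.33 and Atp1b1 34.8% ± 1.62, and E17, where they held 25.6% ± 1.99 and 49.8% ± 3.32. The summed beta level was 187 ± 2.75 TPM at E12.5, 159.8 ± 0.511 TPM at E15.5 and 437 ± 40 TPM at P0. The log2 ratio of Atp1b3 to Atp1b1 fell in every step, from 2.97 to -2.10 (exact permutation test over 945 ways to split the 10 libraries into 5 pairs, p = 0.00106, the smallest possible, adjusted p = 0.00194 over 11 pairs). The ratio of Atp1b2 to Atp1b1 went from 1.14 to -2.08, with the same exact p.

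**Figure D2:**
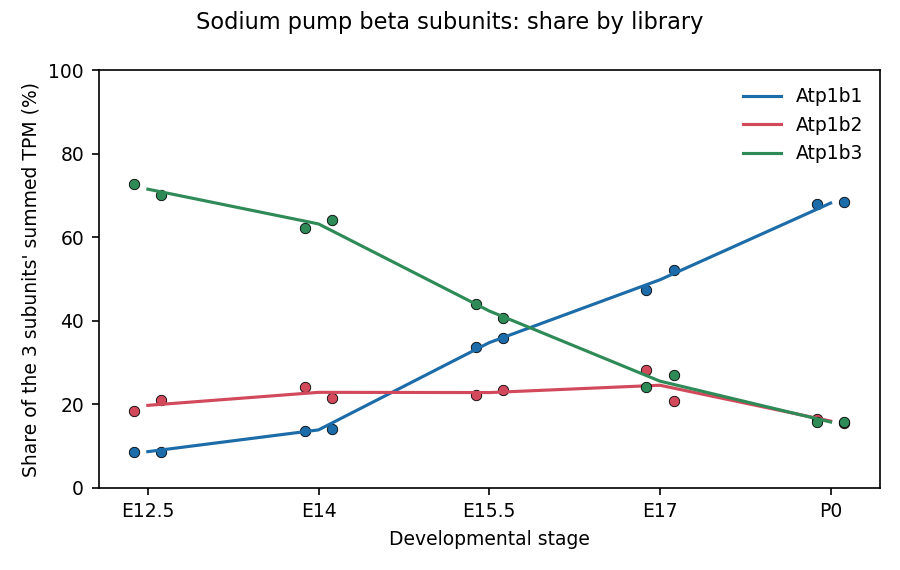
Points are the share of each subunit in the summed TPM of the 3 beta subunits in each of the 10 libraries, by stage, with a line through the stage means. Atp1b1 lies below Atp1b3 up to E15.5, above it at E17, and reaches 68.2% at P0, where Atp1b3 is at 15.8%.

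The promoters of both beta genes that exchanged places are shown because they moved in opposite directions. Each window is the 250 bases before a RefSeq transcript start (GRCm38.p6), read 5′ to 3′ on the strand of the gene. Capitals mark the GC box, GGGCGG or its reverse complement CCGCCC. The Atp1b1 window, chr1:164458356-164458605 on the minus strand, lies directly before the annotated gene (GRCm38, chromosome 1, 164437109 to 164458355) and holds 0 exon bases. The Atp1b3 window, chr9:96364432-96364681 on the minus strand, reaches 11 bases into an annotated exon of its gene (chromosome 9, 96332655 to 96364442).
Atp1b1: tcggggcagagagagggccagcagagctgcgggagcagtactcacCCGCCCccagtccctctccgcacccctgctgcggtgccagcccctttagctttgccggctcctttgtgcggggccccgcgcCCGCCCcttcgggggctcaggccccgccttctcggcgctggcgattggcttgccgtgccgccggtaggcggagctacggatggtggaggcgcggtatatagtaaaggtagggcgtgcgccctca
Atp1b3: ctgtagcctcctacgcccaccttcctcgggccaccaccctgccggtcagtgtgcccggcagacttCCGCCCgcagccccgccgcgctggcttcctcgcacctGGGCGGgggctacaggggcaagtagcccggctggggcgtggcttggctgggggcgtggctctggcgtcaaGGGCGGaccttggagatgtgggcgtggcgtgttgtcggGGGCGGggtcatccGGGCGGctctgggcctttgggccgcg
Both windows are rich in G and C (70.4% and 73.6%), and the box occurs 2 times in the first and 5 times in the second. RefSeq gives a second Atp1b3 window, chr9:96363716-96363965, that holds 0 boxes and is not printed. A match is a run of letters and does not show that a factor binds there.

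From E12.5 to P0, the cation-chloride cotransporters divided into 1 riser, 2 genes that fell and 1 that did not pass. Among all genes 27.1% were higher and 51.0% lower. Slc12a2, which brings chloride into the cell with sodium and potassium, held 32.6 and 31 TPM at E12.5, 23 and 24.2 at E14, 14.3 and 14.3 at E15.5, 19.1 and 17.3 at E17 and 16 and 15.7 at P0. The E12.5 libraries were the highest, the E14 libraries came next, and all later libraries were lower. Slc12a5, which carries chloride out of neurons, held 0.978 and 0.895 TPM at E12.5, 1.1 and 1.03 at E14, 2.97 and 2.82 at E15.5, 8.87 and 6.04 at E17 and 12.6 and 9.77 at P0. The E12.5 and E14 libraries were all close to 1 TPM, and each later stage lay well above the one before, without overlap. From E12.5 to P0 Slc12a2 fell by 0.96 (SE 0.10, adjusted p = 2.25e-06) and Slc12a5 rose by 2.65 (SE 0.16, adjusted p = 3.31e-08), with a 12-fold higher mean TPM at P0. Because of the added 1 TPM, the log2 change understates the difference of a gene as low as Slc12a5 at E12.5. From E12.5 to E14 Slc12a2 fell by 0.42 (SE 0.10, adjusted p = 0.0224), a call lost without any 1 of the 6 libraries of E12.5, E14 and E15.5 (adjusted p up to 0.199).

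Slc12a7, another exporter of potassium and chloride, held 22.1 and 24.3 TPM at E12.5, 15 and 15 at E14, 6.56 and 6.19 at E15.5, 9.86 and 5.81 at E17 and 2.89 and 2.23 at P0. Apart from E15.5 and E17, where the libraries overlapped, each stage lay below the one before. It fell by 2.77 (SE 0.18, adjusted p = 6.5e-08), a mean 9.07-fold lower at P0 than at E12.5. From E14 to E15.5 it fell by 1.12 (SE 0.18, adjusted p = 0.000383) and from E17 to P0 by 1.28 (SE 0.18, adjusted p = 0.000361). Without E17 replicate 1 the latter change was -0.94 (adjusted p = 1.31e-05), so which step was the larger depends on that library. Slc12a9, a relative whose transport role is less settled, had a mean of 4.69 ± 0.545 at E12.5 and 5.18 ± 1.01 TPM at P0 and did not pass the test between them (0.11, adjusted p = 0.565). The falls of Slc12a2 and Slc12a7, like that of Atp1b3, ran alongside the lower progenitor markers from E12.5 to P0. They also ran alongside the choroid plexus, meningeal and red cell markers, which were high at E12.5 and E14 and near 0 later. Their part in these falls was not tested.

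Among Slc12a2, Slc12a5 and Slc12a7 together, Slc12a5 made up 1.67% ± 0.112 at E12.5, 12.3% ± 0.249 at E15.5 and 37.7% ± 3.47 at P0. Slc12a7 went from 41.5% ± 2.49 to 8.6% ± 0.816. Slc12a2 still held 53.7% ± 4.28 at P0. The log2 ratio of Slc12a5 to Slc12a2 rose in every step, from -4.08 at E12.5 through -1.97 at E15.5 to -0.48 at P0 (exact permutation p = 0.00106, adjusted p = 0.00194). At P0 the importer was therefore still the more abundant transcript in both libraries.

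The windows of the riser Slc12a5 and of Slc12a7, which fell most, are shown for the same reason as those of the beta subunits. That of Slc12a5, chr2:164967738-164967987 on the plus strand, lies inside the annotated gene (GRCm38, chromosome 2, 164960802 to 164999731), before an internal start, and holds 5 exon bases. That of Slc12a7, chr13:73763447-73763696 on the plus strand, also lies before an internal start of its gene (chromosome 13, 73733094 to 73816754) and holds 0 exon bases.
Slc12a5: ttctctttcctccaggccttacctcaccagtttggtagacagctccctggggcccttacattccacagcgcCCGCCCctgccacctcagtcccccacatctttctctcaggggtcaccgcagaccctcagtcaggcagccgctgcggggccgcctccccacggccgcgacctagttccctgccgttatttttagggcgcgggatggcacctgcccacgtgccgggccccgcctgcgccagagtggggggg
Slc12a7: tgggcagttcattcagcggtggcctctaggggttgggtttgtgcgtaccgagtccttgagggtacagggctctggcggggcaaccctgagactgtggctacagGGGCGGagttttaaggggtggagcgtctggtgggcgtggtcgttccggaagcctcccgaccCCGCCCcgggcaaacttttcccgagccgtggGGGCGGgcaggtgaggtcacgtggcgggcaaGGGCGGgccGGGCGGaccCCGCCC
The GC box, in capitals, occurs 1 time in the Slc12a5 window and 6 times in that of Slc12a7. Of the other RefSeq windows of these genes, that at the annotated start of Slc12a5 (chr2:164960596-164960845) holds 0 boxes and that of Slc12a7 (chr13:73763410-73763659) holds 3, so for each gene with several windows the one printed is that with the most boxes. RefSeq windows were at hand for 22 of the 35 genes (36 windows, as some genes have several starts). The box was found in 22 of the 36 windows, 61.1%, against 32.7% of all 32851 windows, and in those of 10 of 13 genes that were higher at P0 and 3 of 3 that were lower. The windows had a median GC content of 64.4% against 52.4% in all. The TATA letters TATAAA (or TTTATA) were in 0 of the 36 windows and 12.4% of all, and CCAAT (or ATTGG) in 25.0% and 33.8%.

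Of the calcium pumps, the 3 of the plasma membrane rose from E12.5 to P0 and the pump of the endoplasmic reticulum fell. Among all genes 27.1% were higher and 51.0% lower. Atp2b1, the most abundant of the former, held 26.7 and 24.9 TPM at E12.5, 21.7 and 24.1 at E14, 29.4 and 30.5 at E15.5, 53.9 and 42.2 at E17 and 47.8 and 50.4 at P0. The E17 and P0 libraries were above all earlier ones and overlapped with each other. Its change from E12.5 to P0 was 0.90 (SE 0.12, adjusted p = 2.1e-05). Atp2b2 rose by 0.87 (SE 0.16, adjusted p = 0.000291), from 13.1 ± 1.18 to 24.8 ± 0.130 TPM, and Atp2b3 by 1.13, from 0.905 ± 0.128 to 3.17 ± 0.330 TPM. The ratio of Atp2b2 to Atp2b1 did not pass the test (exact permutation p = 0.351, adjusted p = 0.351), with stage means between -0.96 and -0.72. Atp2a2, which refills the stores of the endoplasmic reticulum, went from 115 ± 2.83 to 80.7 ± 5.52 TPM and fell by 0.51 (SE 0.11, adjusted p = 0.00126). After a correction of each library for coding length and GC content, a choice made after the data were seen, this change was -0.09 (adjusted p = 0.316) and no longer passed.

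The sodium-calcium exchangers, which trade calcium for sodium at the cell surface, had their highest stage means at E17. Slc8a1 held 4.5 and 4.73 TPM at E12.5, 5.76 and 7.01 at E14, 10.6 and 10.8 at E15.5, 27.5 and 14.5 at E17 and 7.16 and 11.4 at P0. Both E17 libraries were above all others, and replicate 1 was far above replicate 2. The rise from E12.5 to P0 of 0.84 (SE 0.25, adjusted p = 0.00939) was lost without P0 replicate 2 (0.54, adjusted p = 0.134). Slc8a2 held 18.7 and 19.3 TPM at E12.5, 22.6 and 23.1 at E14, 25.6 and 26.1 at E15.5, 40.6 and 25.9 at E17 and 26.2 and 23.3 at P0, with E17 replicate 1 alone standing high. Its change from E12.5 to P0, 0.36 (SE 0.16, adjusted p = 0.0598), did not pass the test. The ratio of Slc8a2 to Slc8a1 also did not pass (exact permutation p = 0.0529, adjusted p = 0.0647).

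Voltage-gated calcium channels consist of a pore subunit and of beta and alpha2-delta subunits that carry it to the membrane. Of the 7 genes named Cacn in the table, Cacng7 included, 4 rose from E12.5 to P0, 1 fell and 2 did not pass. Among all genes 27.1% were higher and 51.0% lower. Cacnb3, a beta subunit, held 88.6 and 94.8 TPM at E12.5, 120.1 and 111 at E14, 185 and 180.2 at E15.5, 227 and 199 at E17 and 215 and 179 at P0, with the E12.5 and E14 libraries below all later ones. It rose by 1.09 (SE 0.10, adjusted p = 1.06e-06). Cacnb1, the other beta subunit listed, rose by 1.42 (SE 0.14, adjusted p = 2.1e-06), from 16 ± 1.74 to 44.2 ± 0.283 TPM. The alpha2-delta genes differed among themselves. Cacna2d3 rose by 1.4 (SE 0.11, adjusted p = 3.84e-07), from 3.72 ± 0.128 to 11.5 ± 0.986 TPM. Cacna2d1 had means of 34.6 ± 0.322 and 35.9 ± 0.418 TPM and did not pass (0.05, adjusted p = 0.691). Cacna2d2 fell by 0.52 (SE 0.13, adjusted p = 0.00347), and under quantile normalization this change was 0.05 (adjusted p = 0.669), in the opposite direction. The ratio of Cacna2d2 to Cacna2d1 went from -2.03 to -2.60 (exact permutation p = 0.00317, adjusted p = 0.00437).

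Cacna1e, the pore subunit of the R-type channel and the only pore subunit of the family in the table, held 5.53 and 5.32 TPM at E12.5, 8.25 and 9.17 at E14, 15.51 and 14.8 at E15.5, 34.9 and 19 at E17 and 14.3 and 14.1 at P0. The E17 libraries were the highest and the E12.5 libraries the lowest, while the P0 libraries lay just below those of E15.5. It rose by 1.24 (SE 0.20, adjusted p = 0.000158) over the whole span. Cacng7, which belongs to a family of auxiliary subunits of AMPA receptors, was among the most abundant of the 35 genes, with 151 ± 1.59 at E12.5 and 165 ± 26.7 TPM at P0, and did not pass between these stages (0.12, adjusted p = 0.503).

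Scn3a, the embryonic voltage-gated sodium channel pore, was the only gene of its family in the table. It held 4.4 and 4.33 TPM at E12.5, 4.95 and 6.27 at E14, 11.4 and 11.4 at E15.5, 23.4 and 17.1 at E17 and 13 and 13.5 at P0. The E12.5 and E14 libraries were low, E15.5 was intermediate, and both E17 libraries exceeded those of P0. The rise from E12.5 to P0 was 1.41 (SE 0.15, adjusted p = 3.15e-06).

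Of the 4 potassium channel genes, 3 rose from E12.5 to P0, against 27.1% of all genes. Kcnq5, whose channel carries the slow M-type current that restrains firing, held 2.69 and 2.39 TPM at E12.5, 3.35 and 3.91 at E14, 10.8 and 11 at E15.5, 22.9 and 16.3 at E17 and 17.4 and 19.7 at P0. The libraries of E12.5 and E14 lay below 4 TPM and those of E15.5, E17 and P0 above 10 TPM. Kcnq5 rose by 2.46 (SE 0.15, adjusted p = 3.08e-08), and its step from E14 to E15.5, 1.37 (SE 0.15, adjusted p = 1.87e-05), was the largest rise among the 35 genes in that interval. Kcnd1, a pore of the transient A-type current, rose by 1.2 (SE 0.18, adjusted p = 6.96e-05), from 1.28 ± 0.135 to 4.24 ± 0.624 TPM. Kcnab2, a cytoplasmic beta subunit, rose by 1.0 (SE 0.12, adjusted p = 1.07e-05), from 16.1 ± 0.994 to 33.2 ± 2.11 TPM. Kcnab2 shares exon sequence with another gene on the same strand, Gm16334.

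Kcnj11, the pore of the ATP-sensitive potassium channel, was high at the middle stages. It held 16.7 and 16.2 TPM at E12.5, 28.9 and 26.9 at E14, 42.1 and 39.2 at E15.5, 55.4 and 31.9 at E17 and 21.2 and 15.6 at P0. The E12.5 and P0 libraries overlapped, and those of E14, E15.5 and E17 all lay above them. Between E12.5 and P0 the change was 0.14 (adjusted p = 0.546). From E17 to P0 Kcnj11 fell by 1.16 (SE 0.21, adjusted p = 0.00141), and without E17 replicate 1 by 0.77 (adjusted p = 0.000192). Without that library its highest stage mean was at E15.5.

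The chloride-proton exchangers Clcn3, Clcn4 and Clcn6 act in endosomes and lysosomes. Clcn4 held 54.7 and 56.2 TPM at E12.5, 64.7 and 65.3 at E14, 96.1 and 92.1 at E15.5, 147 and 126 at E17 and 127 and 134 at P0, with both libraries of every stage from E15.5 on above those of E12.5 and E14, and rose by 1.22 (SE 0.08, adjusted p = 9.23e-08). Clcn3 had 56.3 ± 1.3 at E12.5 and 53 ± 2.01 TPM at P0. It was the only 1 of the 35 genes that did not pass the test over all 5 stages (adjusted p = 0.0696), where 82.9% of all genes passed. From E12.5 to P0 its change was -0.09 (adjusted p = 0.406), and it turned to 0.18 under median-of-ratios scaling and to 0.33 with the correction for coding length and GC content, where it passed. The ratio of Clcn4 to Clcn3 went from -0.02 at E12.5 to 0.97 at E15.5 and 1.29 at P0 (exact permutation p = 0.00106, adjusted p = 0.00194). Clcn6 had 33.2 ± 2.04 at E12.5 and 38.3 ± 5.22 TPM at P0 and did not pass between them (0.19, adjusted p = 0.317).

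Itpr1, the receptor through which inositol trisphosphate releases calcium from the endoplasmic reticulum, held 4.55 and 5.0 TPM at E12.5, 5.01 and 5.39 at E14, 9.8 and 9.97 at E15.5, 23.8 and 17.4 at E17 and 12.8 and 15.2 at P0. The E12.5 and E14 libraries were close to each other, E15.5 was higher than both, and the E17 libraries were the highest. It rose by 1.37 (SE 0.14, adjusted p = 3.49e-06) from E12.5 to P0.

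The mitochondrial porins, which pass metabolites and ions through the outer membrane, had the 3 highest means over all libraries among the 35 genes. Vdac1 held 323 and 341 TPM at E12.5, 336 and 321 at E14, 354 and 368 at E15.5, 309 and 348 at E17 and 395 and 413 at P0. The P0 libraries were the highest, and the earlier libraries lay between 309 and 368 TPM. Vdac1 rose by 0.28 (SE 0.08, adjusted p = 0.00734) and Vdac3 by 0.48 (SE 0.12, adjusted p = 0.00361), while Vdac2 did not pass (0.09, adjusted p = 0.297), with 198 ± 1.77 at E12.5 and 211 ± 12.47 TPM at P0. Vdac3 had 169 ± 0.952 and 237 ± 24.5 TPM at these stages. The call for Vdac1 was lost without E12.5 replicate 1 (0.24, adjusted p = 0.0656) and that for Vdac3 without P0 replicate 2 (0.38, adjusted p = 0.0503). The ratio of Vdac2 to Vdac1 went from -0.75 to -0.94 (exact permutation p = 0.00212, adjusted p = 0.00333), and that of Vdac3 to Vdac1 did not pass (adjusted p = 0.306). How the authors treated reads that also match the processed copies of these genes was not given in the sources used here.

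**Figure D3:**
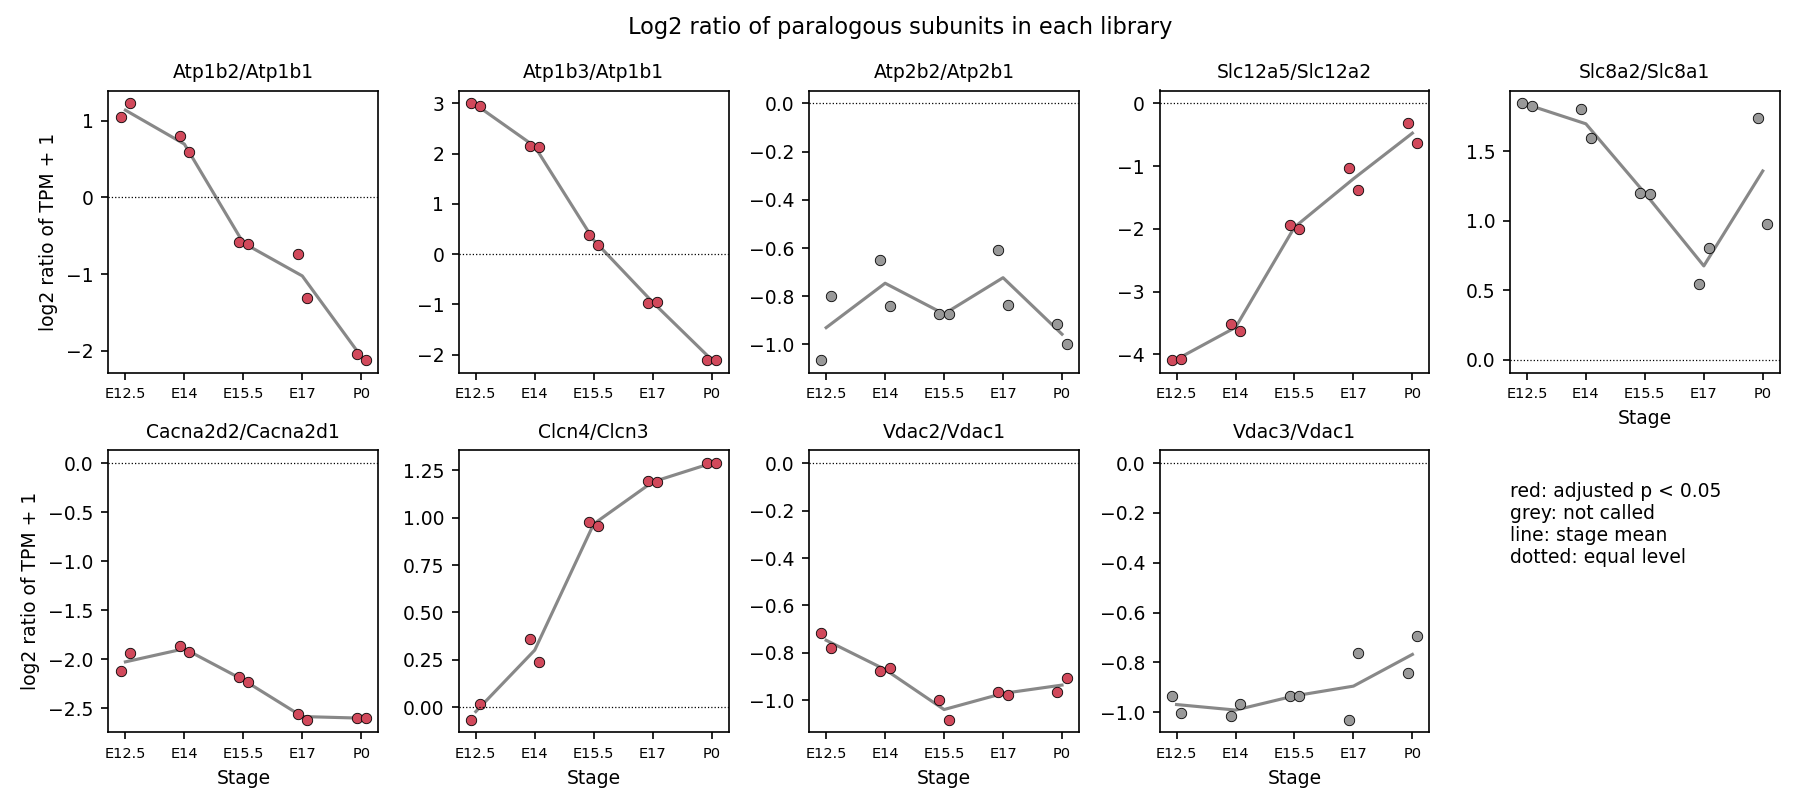
The panels plot, for 9 of the 11 pairs tested, the log2 ratio of a pair of paralogous subunits, on TPM + 1, in each of the 10 libraries by stage, with a line through the stage means. The 6 pairs in red passed the exact permutation test (adjusted p under 0.05 over 11 pairs), and the 3 in grey (Atp2b2/Atp2b1, Slc8a2/Slc8a1 and Vdac3/Vdac1) did not.

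The changes were not spread evenly over the steps. From E12.5 to E14, only Atp1b1 (higher) and Slc12a2 (lower) passed among the 35 genes, against 8.73% of all genes (3.95% higher and 4.78% lower). Leaving out single libraries moved that count between 0 and 18. Without E12.5 replicate 1, E12.5 replicate 2 or E14 replicate 2 it was 0 by limma, with 9, 8 and 9 genes at an unadjusted p under 0.05, and without either E17 library it was 18, where 29.2% of all genes passed. From E14 to E15.5, 14 genes rose and 7 fell, 21 in all, against 51.7% of all genes (18.4% higher and 33.3% lower). Besides Kcnq5 and Atp1b1 (1.18), the genes that rose included Scn3a (0.92), Slc12a5 (0.91) and Itpr1 (0.81). Among the 7 that fell were Slc12a7, Atp1b3, Slc12a2, Atp2a2 and Cacna2d2, with changes between -1.12 for Slc12a7 and -0.34 for Cacna2d2. Cacna2d2 lost this call under most alternatives, and so did Atp2a2 without E14 replicate 2 or either E15.5 library, Atp2b1 without E14 replicate 1 or either E15.5 library, Cacna1e without E14 replicate 1 or E15.5 replicate 1, and Slc8a1 without any 1 of the libraries of E12.5, E14 and E15.5. In this step neuronal markers rose and progenitor markers fell, and the choroid plexus, meningeal and red cell markers dropped to near 0. Their part in these changes was not tested.

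From E15.5 to E17, 24 of the 35 genes rose, against 14.4% of all genes higher, 10.6% lower and 25.0% in either direction. By limma on all 10 libraries 0 of the 35 fell, also at an unadjusted p under 0.05 (0 genes), and no other tool was run. The median change was 0.57 for the 35 genes and 0.01 for all genes. Calls without E17 replicate 2 went in both directions, with changes of -0.22 for Vdac1 and -0.32 for Vdac3 among them. Leaving out either E15.5 library gave 14 calls, and leaving out E17 replicate 2 gave 33, where 52.3% of all genes passed. Without E17 replicate 1, 18 genes rose against 12.2% of all genes, and the median was 0.31. Among the calls lost without that library were those of Cacna2d2, Clcn3, Kcnd1, Slc12a9 and Slc8a1. When the fit was limited to the 4 libraries of both stages, 2 genes still passed, Atp1b1 among them.

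From E17 to P0, 7 genes rose and 10 fell, against 12.9% and 28.8% of all genes and 41.7% in either direction. The median change of the 35 genes was -0.16. Among the genes that rose were Atp1b1, Slc12a5 (0.54), the 3 porins (between 0.30 and 0.43) and Kcnab2. The genes that fell were Slc12a7, Kcnj11, Slc8a1 (-1.06), Cacna1e (-0.82), Clcn6 (-0.71), Cacna2d2, Scn3a, Cacna2d1, Itpr1 and Cacng7. They made up 28.6% of the 35 genes, near the share of all genes that fell. Without E17 replicate 1, 9 rose and 9 fell, against 17.5% and 24.7% of all genes, and the median was 0.05, so its direction turned. Without E17 replicate 2, 5 rose and 20 fell, against 17.4% and 44.9% of all genes, with a median of -0.29. Without E17 replicate 1 the changes of Slc8a1, Cacna1e and Clcn6 were -0.62 (adjusted p = 0.00853), -0.39 (adjusted p = 0.00599) and -0.40 (adjusted p = 0.0108). Those of Scn3a, Cacna2d2 and Itpr1 were then -0.35, -0.39 and -0.30. Without either P0 library 10 genes passed in all, and with the correction for coding length and GC content 11 rose and 9 fell, against 27.9% and 24.5% of all genes. The call for Slc12a5 was lost without E17 replicate 2 (0.30, adjusted p = 0.0616) or P0 replicate 1 (0.37, adjusted p = 0.180). Cacna1e lost its call without either P0 library, Vdac1 without P0 replicate 2, Vdac3 without P0 replicate 2 or E17 replicate 1, Clcn6 without P0 replicate 2, and Slc8a1, Scn3a and Itpr1 without P0 replicate 1. After the correction for coding length and GC content the change of Scn3a was -0.12 (adjusted p = 0.284) and that of Itpr1 was 0.03 (adjusted p = 0.707). Cacng7 lost its call without any 1 of 8 of the 10 libraries, with a change of -0.15 (adjusted p = 0.263) without E17 replicate 1, and also with no filter, under median-of-ratios scaling, without a variance trend and in the fit to the 4 libraries of these stages. The rise of Kcnab2 lost its call without any 1 of 7 of the 10 libraries, all of them but the E14 libraries and E17 replicate 1.

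By stage means, 18 of the 35 genes were highest at E17, against 16.4% of all tested genes, 12 at P0 and 5 at E12.5. Without E17 replicate 1, 10 were highest at E17, against 8.02% of all genes. These were Cacna1e, Cacna2d1, Cacnb3, Cacng7, Clcn6, Itpr1, Scn3a, Slc12a9, Slc8a1 and Slc8a2. For some the margin was small. In E17 replicate 2, Cacng7 held 182.3 TPM against a mean of 181.0 at E15.5, and Slc8a2 25.95 against 25.82. Cacnb3 held 199.1 TPM in that library against a mean of 196.8 at P0, and Slc12a9 5.30 against 5.18. Cacna2d1, an alpha2-delta subunit, kept its calls up to and after E17 without E17 replicate 1. It held 34.8 and 34.4 TPM at E12.5, 28.6 and 33.8 at E14, 30.5 and 30.5 at E15.5, 58.2 and 47.7 at E17 and 35.6 and 36.2 at P0, with both E17 libraries above all others. It rose by 0.77 (SE 0.11, adjusted p = 0.000965) up to E17 and then fell by 0.54 up to P0. Without E17 replicate 1 the changes were 0.63 (adjusted p = 0.000191) and -0.40 (adjusted p = 0.004). Clcn6 showed the same order, with 38.4 ± 0.669 TPM at E15.5, 64.7 ± 19.8 TPM at E17 and 38.3 ± 5.22 TPM at P0, and its E17 values were 78.7 and 50.7 TPM.

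**Figure D4:**
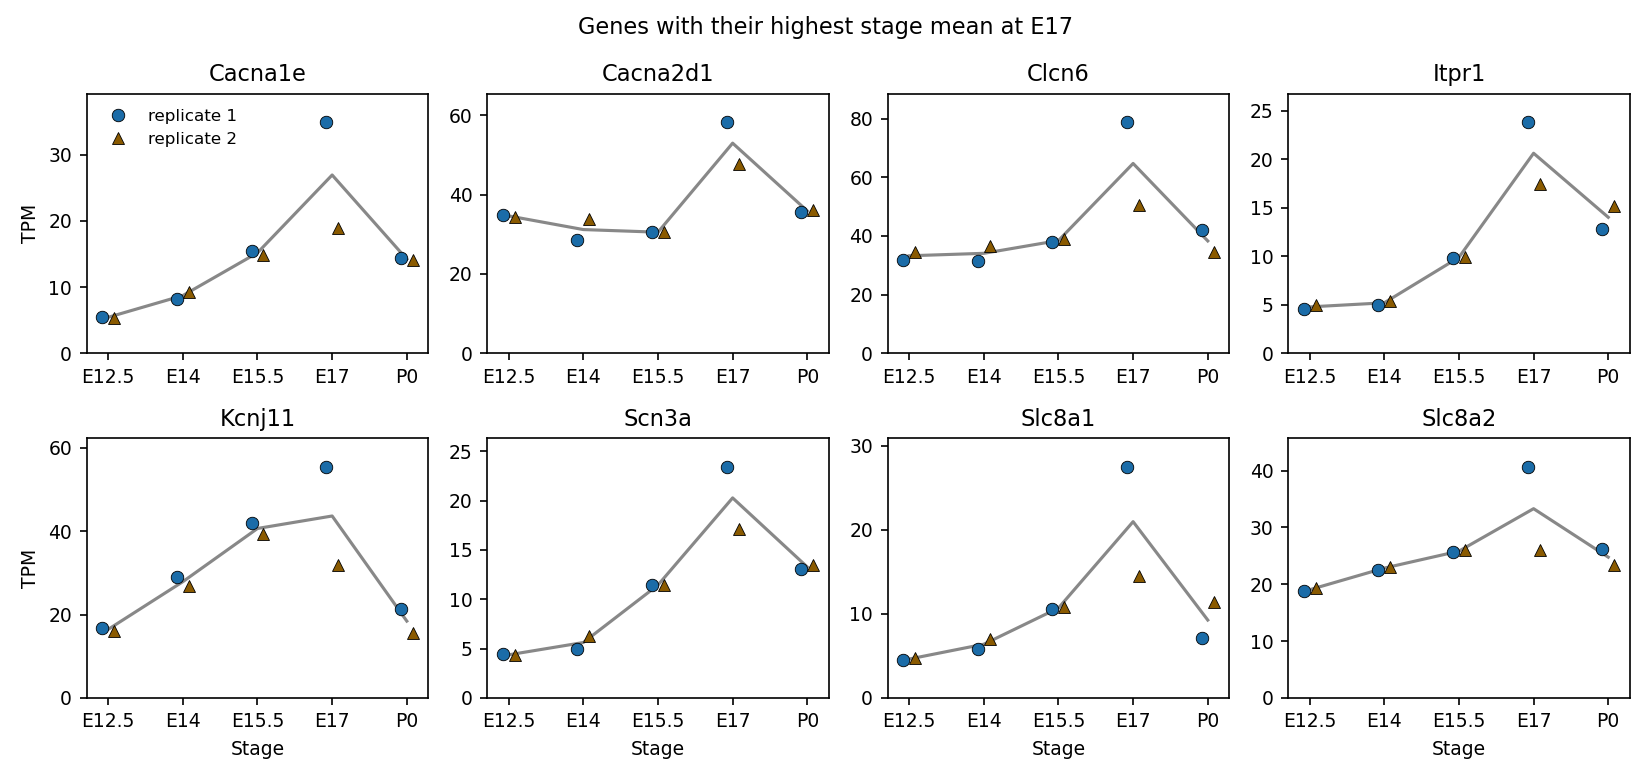
TPM of 8 genes whose mean over both libraries was highest at E17, with replicate 1 as circles, replicate 2 as triangles and a line through the stage means. Replicate 1 lies above replicate 2 at E17 in all 8 panels, and Kcnj11 is the panel in which E17 replicate 2 lies below the E15.5 libraries.

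The regulators and partners of these proteins were read from a list of 79 other genes of ion transport. Of these, 42 were in the table, 39 passed the test over the 5 stages, and 16 were higher and 18 lower at P0 than at E12.5, where 82.9% of all genes passed over the stages, 27.1% were higher and 51.0% lower. The counts of the smaller lists that follow are to be read against the same shares. Of the sodium pump's accessory genes, 2 of 9 were in the table and both rose: Fxyd6, a small membrane protein that modulates the pump, from a mean of 504 to 1621 TPM (1.68, adjusted p = 1.01e-08), and Nkain1 (0.49). Of 8 kinases and adaptors that regulate the cation-chloride cotransporters, 7 were in the table, 1 rose (Cab39, 0.33) and 4 fell. Those 4 were Wnk1 (-1.25), Stk39 (-1.08), Cab39l (-1.01) and Oxsr1 (-0.40), of which Wnk1, Stk39 and Oxsr1 are kinases of the pathway that phosphorylates Slc12a2 and Slc12a5.

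Of 15 genes listed as partners or anchors of channels, 8 were in the table, 6 rose and 1 fell. Cntn1, an adhesion molecule that associates with sodium channels, rose by 3.30 (SE 0.11, adjusted p = 1.76e-10), and Dpp10, an auxiliary subunit of A-type potassium channels such as that of Kcnd1, by 3.18. Caprin1, the 1 that fell, changed by -0.95. It was counted as listed, although it is not an established partner or anchor of channels. Of 12 genes of store-operated entry and the endoplasmic reticulum, 7 were in the table, with 1 higher and 4 lower at P0. The one higher was Jph4, a junctophilin of neurons that tethers the reticulum to the cell surface (2.33), and the largest fall was that of the chaperone Hspa5 (-1.71). These 4 lower genes of 7 are to be set against 51.0% of all genes lower, so they do not mark out the reticulum. Atp2a2 also fell and Itpr1 rose over this span, but the fall of Atp2a2 was lost after the correction for coding length and GC content. Of 8 genes of mitochondrial calcium uptake, 5 were in the table. Among them Micu3 (1.10), Mcu (0.85), the pore of the uniporter and Letm1 rose. Of 27 other channels and exchangers, 13 were in the table, 3 rose and 8 fell, among them Slc4a10, a sodium bicarbonate transporter of neurons (2.13), and Clic1 (-3.0).

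The 35 genes lie on 17 chromosomes, with at most 5 on one, and their annotated spans had a median of 35267 bases against 29185 for all tested genes. They had a median of 17 exons against 11. Kcnj11 has 1 exon, the fewest, and the highest number was 62. Exon sequence is shared with a gene on the opposite strand for 10 of them.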

How the data were processed

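RNA-seq of frozen neocortex was analysed in 10 libraries, 2 at each of 5 stages. Per the labels' protocols, tissue was pulverised frozen in detergent buffer, the lysate was cleared, TRIzol LS was used for extraction, and the mRNA libraries kept strand, so RNA lost with the pellet was not measured. Per the submitters' processing notes, STAR and Subread (no versions given) and GRCm38.p5 were used. The authors deposited TPM, per the file headers, in a single column for each library, and TPM keep no record of depth; gene lengths, strand setting, treatment of reads with several matches and the choice of the 6147 rows were not given in the sources used here. Stages came from the labels and columns were matched by name (0 columns without a sample).

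Genes with a mean under 1 TPM (99) were left out. Values were analysed as log2(TPM + 1), which understates changes of low genes, with limma 3.58.1 in R 4.3.3: 1 mean per stage over all 10 libraries, 5 residual degrees of freedom, empirical Bayes moderation with a variance trend, and Benjamini-Hochberg adjustment over 6048 genes (called under 0.05). Every log2 change and SE in the text comes from this fit, unless another setting is named with it. The median SE of a change was 0.14 for the 35 genes and 0.11 for all genes. Of 27 subunit pairs listed, 11 had both genes in the table; their log2 ratios per library were tested with an exact two-sided permutation test of the F statistic, adjusted over these pairs. Positions and lengths came from GENCODE M21 (GRCm38) and promoter windows from RefSeq (GRCm38.p6). Code (Python 3.11.15, pandas 2.3.3, numpy 2.4.6) was tested on simulated data.

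The members, the marker and ion transport lists and the tests were chosen with earlier results of these data known. Genes named were those of tested pairs, up to 10 called rises and 10 falls from E12.5 to P0 with a mean of at least 5 TPM and no overlap, the extremes of each step, the most abundant gene of each name family and 5 genes called over the 5 stages but not from E12.5 to P0; Atp2b3, Kcnab2 and Kcnd1 were added. Some genes are counted but not reported here by name. In the lists, genes were named after their values were seen. Alternatives were other pseudocounts (0.1 and 10 TPM), filters (5 TPM or none), scalings (median of ratios, quantile), moderation without a trend, a replicate block, fits on the 4 libraries of a comparison and each library left out.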

Additional observations from a re-analysis of the deposited data

How the results depend on the processing

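From E12.5 to P0 the count of 27 genes stayed within 1.5 times under every alternative run, at 25 to 28 with single libraries left out. For the 2 genes called from E12.5 to E14, the count was 4 with a pseudocount of 10 TPM, 11 under median-of-ratios scaling (8 higher, 3 lower), 10 under quantile normalization (7 higher, 3 lower), 19 with only the 4 libraries of both stages, and 0 to 18 with single libraries left out. Under median-of-ratios scaling 12.2% of all genes passed in this step (7.14% higher and 5.03% lower). Chosen after seeing the data, the correction for coding length and GC content gave 17, where 22.3% of all genes passed. Leaving out both E17 libraries, also chosen then, gave 18. From E15.5 to E17 (24 genes) it was 2 with only 4 libraries and 14 to 33 with single libraries left out. From E17 to P0 (17 genes) it was 7 with only 4 libraries and 10 to 25 with single libraries left out. With the replicate block, the counts were 34 over the 5 stages, 4, 21, 23 and 16 for the 4 steps in order and 27 from E12.5 to P0. The labels share only a number: correlations of replicate differences between stages ran from -0.37 to 0.11, with 1 of 10 stage pairs over 0.1.

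Among changes of single genes that passed as reported or under the alternative, directions turned for Cacna2d2 from E12.5 to P0 under quantile normalization (0.045), for Clcn3 from E12.5 to P0 under median-of-ratios scaling (0.18) and with the correction for coding length and GC content (0.33), and for Itpr1 from E17 to P0 with that correction (0.032). The cause was not tested. Of the 3585 changes of single genes under alternatives, 71 more turned sign but passed on neither side. Over named genes and pairs, 3126 of 3462 alternative values kept direction and side of the threshold. All these rest on 2 libraries per stage, and depth is unknown.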
